A study of Mus musculus with 4 samples.

Results

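The mouse Ly6 genes and Thy1 encode small proteins that sit on the outer face of the cell membrane, and 8 of them are described here: Ly6a, Ly6c1, Ly6d, Ly6e, Ly6h, Ly6k, Lynx1 and Thy1. They were chosen by gene name, and every array row annotated to one of them was kept. This gave 10 rows of 35411, or 8 genes of 20735, since Ly6a and Ly6h have a pair of rows each and the others have 1. RNA labelled as that of CD4+ T cells from spleen was hybridised with Cy3 to 4 arrays, 1 per group, all from mice of the FVB/N background. The groups were CD62L high cells of miR-7 deficient mice labelled activated, CD62L high cells of wild type (WT) mice labelled activated, naive CD62L high cells of miR-7 deficient mice and naive CD62L high cells of WT mice. Activation is labelled as 48 hours in vitro with antibodies to CD3 and CD28 plus IL-2, and isolation as magnetic bead selection. The mice are labelled as of miR-7 deficiency, abbreviated KD in the deposited comparisons. How the miR-7 deficiency was made, in which cells it acts and the age of the mice are not given in the sources used here. The protocol fields for growth and treatment concern a bacterium and say nothing of these cells.

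Each sample is labelled as representative of 3 biological replicates, but there is 1 array per group. Each difference thus sets a single array against another, without replicates or a p-value, and the number of arrays limits the precision. In these bulk samples, fewer cells of a type and less RNA per cell cannot be told apart.

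Members of the Ly6/uPAR family share a compact disulfide-bonded fold, and most are held on the cell surface by a glycosylphosphatidylinositol (GPI) anchor. In the mouse most Ly6 genes lie in a cluster on chromosome 15, and several are used as surface markers of lymphoid and myeloid cells, some of them induced by interferon. Lynx1 and Ly6h belong to the branch expressed in the nervous system, where Lynx1 binds nicotinic acetylcholine receptors and modulates them. Thy1, on chromosome 9, is a GPI-anchored protein of the immunoglobulin superfamily that mouse T cells and many mouse neurons both carry at high levels. The genes were grouped by these known sites of expression as lymphoid (Ly6a, Ly6c1, Ly6d, Ly6e), neuronal (Ly6h, Lynx1), shared by T cells and neurons (Thy1) and testis (Ly6k).

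The genotype comparisons rest on the microRNA in which the mice are labelled deficient. It is shown with its seed, bases 2 to 8, in capitals. Both mouse forms in RefSeq (GRCm38.p6) share the seed.
mmu-miR-7a-5p: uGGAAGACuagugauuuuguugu
mmu-miR-7b-5p: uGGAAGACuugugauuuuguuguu
The level of miR-7 itself was not analysed here, so the genotype labels were not checked against it.

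The promoter of Ly6c1 is shown because Ly6c1 and its neighbour Ly6a are known to respond to interferon, a gene group that differed between the naive arrays. It was the only one of the 8 genes with an entry in the promoter table used, which holds 250 bases before to 50 bases after each start. The window below is the minus strand of chr15:75048788-75049087 (GRCm38.p6, RefSeq), written 5′ to 3′, and the capitals mark its single TATAAA, at base 108 of the window.
Ly6c1: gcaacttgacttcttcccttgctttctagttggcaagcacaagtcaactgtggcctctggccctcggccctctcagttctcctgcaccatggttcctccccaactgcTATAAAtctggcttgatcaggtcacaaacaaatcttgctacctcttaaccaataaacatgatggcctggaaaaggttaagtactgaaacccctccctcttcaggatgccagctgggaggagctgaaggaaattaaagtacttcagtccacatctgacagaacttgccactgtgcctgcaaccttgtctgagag
TATAAA was searched on both strands and was found in 13.6% of the 32851 promoter windows of the table. The interferon gamma-activated site TTCNNNGAA, found in 8.30% of windows, and the core of the interferon-stimulated response element (GAAA, any 2 bases, GAAA), found in 3.44%, had no match on either strand of this Ly6c1 window. A second Ly6c1 window of the table, from another start, held none of the 3 motifs. These are matches of letters in 300-base windows and say nothing of factor binding.

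The values are the authors' normalized intensities, which ranged from 21.7 to 64873 over the 4 arrays. A floor was set on each array at the 95th percentile of 667 rows for chemosensory receptors (smell, pheromone, trace amine and taste). T cells, as which the samples are labelled, should not use these receptors. Whether this holds for the RNA on the arrays labelled activated was not tested. The floor lay at an intensity of 604 on the miR-7 deficient array labelled activated and 720 on the WT array labelled activated. It lay at 985 on the naive miR-7 deficient array and 984 on the naive WT array. Of the 8 genes, 6 exceeded the floor on each array labelled activated, 3 on that of naive miR-7 deficient cells and 4 on that of naive WT cells. Counts over all 20735 genes ran the same way. They were 5352 and 4608 on the miR-7 deficient and WT arrays labelled activated, and 3057 and 2849 on the naive miR-7 deficient and naive WT arrays. Where only 1 side of a comparison was above its floor, the other was set to the floor and the difference is a bound. Where both were below, no difference is given. A gene counts as compared where either array exceeds its floor, and as called where the arrays are at least 2-fold apart (a log2 difference of 1 or more).

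The arrays labelled activated went against their label as T cell samples. A list of 10 neuron markers had a summed intensity of 92999 and 64980 on the miR-7 deficient and WT arrays labelled activated, against 2222 and 3007 on the naive miR-7 deficient and naive WT arrays. Of these 10 markers, 9 and 8 exceeded the floor on the miR-7 deficient and WT arrays labelled activated, and 0 did on either naive array. Snap25, a synaptic vesicle fusion protein, had 10339, 7834, 127 and 356 in the same order, and Mbp, a myelin protein of oligodendrocytes, had 17055, 23744, 241 and 370. Sums over 10 T cell markers ran the other way, at 7252 and 5553 on the arrays labelled activated against 29408 and 24920 on the naive arrays, and Cd3e, the CD3 epsilon chain, was below the floor on both arrays labelled activated, at 434 and 419, against 1220 and 1680. What tissue or cells these RNAs came from was not tested, and "labelled activated" is used throughout. The bar plot of marker sums shows the split for 9 lists.

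**Figure D1:**
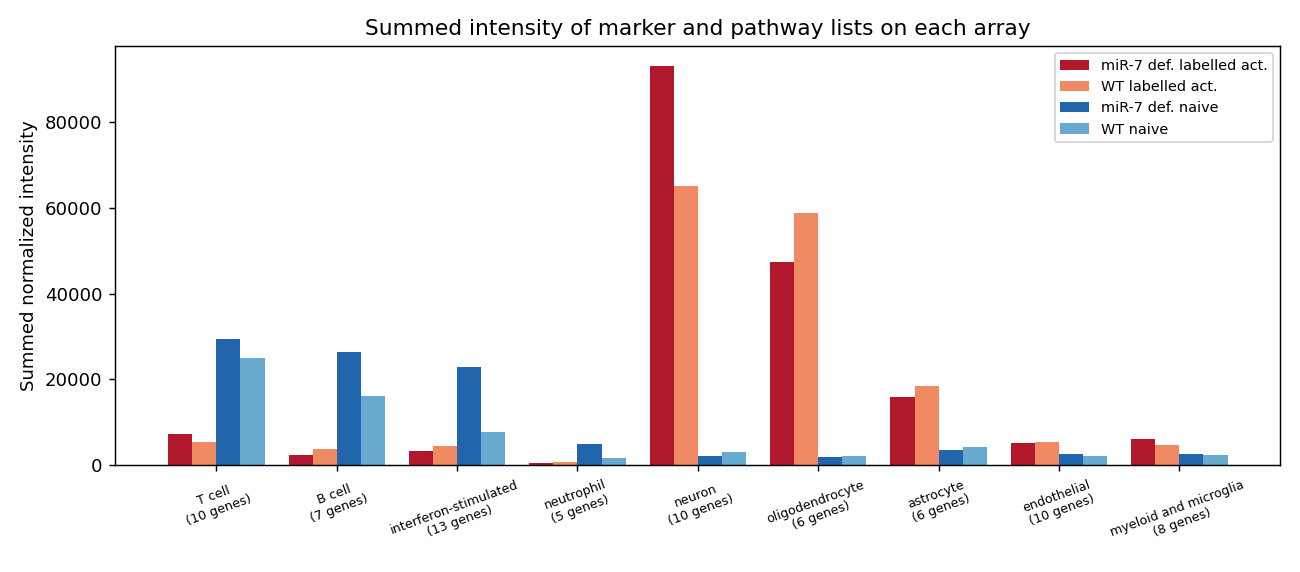
Summed normalized intensity (linear axis from 0) of 9 marker and pathway lists on each of the 4 arrays; each bar is 1 list on 1 array, to be read across arrays within a list. Neuron, oligodendrocyte and astrocyte sums are high on both arrays labelled activated, T cell and B cell sums are higher on both naive arrays, and the interferon-stimulated sum is 22882 on the naive miR-7 deficient array against 7685 on the naive WT array.

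Of the lymphoid genes, Ly6e and Ly6a were above the floor on all 4 arrays. Ly6e, also called thymic shared antigen, is an interferon-inducible surface protein. Its intensity was 3289 on the miR-7 deficient array labelled activated, 2877 on the WT array labelled activated, 9596 on the naive miR-7 deficient array and 6781 on the naive WT array. Both naive arrays were above both arrays labelled activated, and within each state the miR-7 deficient array was the higher.

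Ly6a, also called Sca-1, marks haematopoietic stem cells and activated lymphocytes and is induced by interferons. Its first row had intensities of 806 on the miR-7 deficient array labelled activated, 943 on the WT array labelled activated, 2044 on the naive miR-7 deficient array and 1121 on the naive WT array. The second row, made from the cDNA named T-cell-activating protein, had 873, 931, 2717 and 1077 in that order. In both rows the naive miR-7 deficient array stood above the other 3, each of which was above its own floor.

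Ly6c1 encodes a form of Ly6C, a surface antigen of monocytes, memory T cells and endothelial cells. It had 948 on the miR-7 deficient array labelled activated, 1268 on the WT array labelled activated, 1322 on the naive miR-7 deficient array and 528 on the naive WT array. It was below the floor only on the naive WT array.

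Ly6d, known as ThB and used to mark B cell progenitors, stayed below the floor on all 4 arrays, at 97.9 and 92.4 on the miR-7 deficient and WT arrays labelled activated and at 503 and 363 on the naive miR-7 deficient and naive WT arrays. The naive values were the higher, but no difference is given for this gene.

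Thy1 had the highest intensity of its 4 on the miR-7 deficient array labelled activated, at 17567, against 8439 on the WT array labelled activated. The naive values were 742 on the miR-7 deficient array and 1889 on the WT array. The 742 is below the floor of 985, although Thy1 is a defining surface protein of mouse T cells. The order of the genotypes was opposite in the activated-labelled and naive pairs.

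Of the neuronal genes, Lynx1 had 2468 and 2491 on the miR-7 deficient and WT arrays labelled activated, against 229 and 627 on the naive miR-7 deficient and naive WT arrays. It was above the floor only on the arrays labelled activated, where the genotypes were nearly equal. Ly6h encodes a brain-enriched family member that limits nicotinic receptor activity. Its second row gave 1424 and 1088 on the miR-7 deficient and WT arrays labelled activated and 384 and 443 on the naive miR-7 deficient and naive WT arrays. Its first row stayed between 77.0 and 116 on all 4 arrays, below every floor, so the rows of Ly6h disagree and only the second carries a signal.

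Ly6k, a sperm and testis protein needed for male fertility in mice, had 527, 392, 876 and 1012 in the order miR-7 deficient labelled activated, WT labelled activated, naive miR-7 deficient and naive WT. It passed the floor on the naive WT array alone, at 1012 against a floor of 984.

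**Figure D2:**
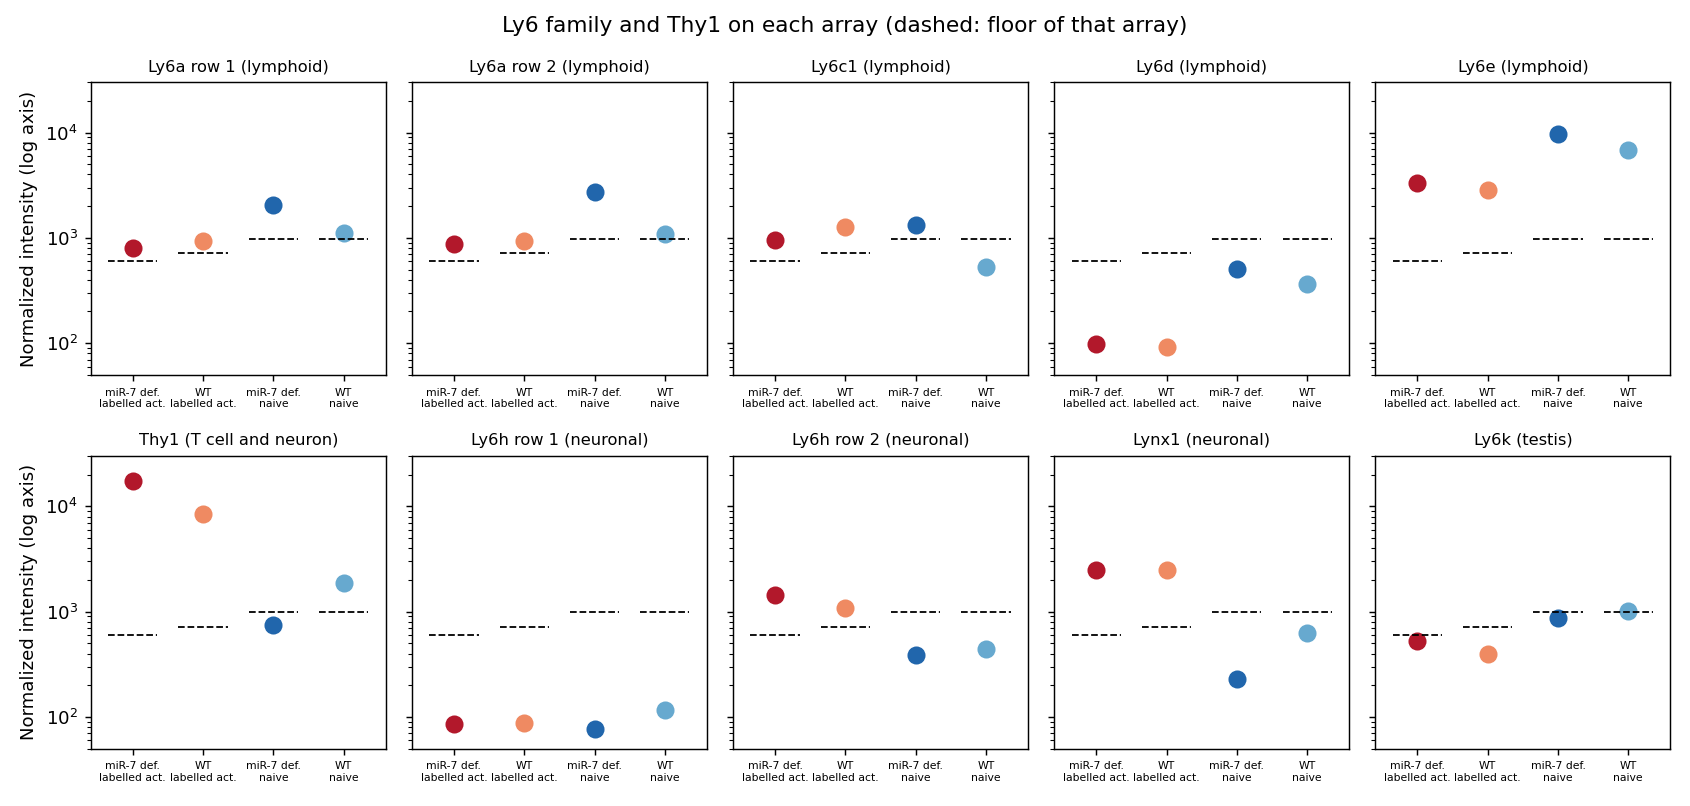
Normalized intensity (log axis) of all 10 rows on the 4 arrays, 1 point per array, with a dashed line at that array's floor. Thy1, Lynx1 and the second Ly6h row stand higher on both arrays labelled activated, Ly6e stands higher on both naive arrays, and both Ly6a rows are highest on the naive miR-7 deficient array.

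Between the naive arrays, which compare miR-7 deficient with WT cells before stimulation, Ly6a was higher on the miR-7 deficient array and Thy1 was lower there. Ly6a was 2.52-fold higher on its second row (log2 difference 1.33) and 1.82-fold higher on its first row (log2 difference 0.87). Ly6c1 was at least 1.34-fold higher, and 2.50-fold higher if no floor is used. Ly6e was 1.42-fold higher (log2 difference 0.50), and Thy1 was at least 1.92-fold lower, with intensities of 742 on the naive miR-7 deficient array and 1889 on the naive WT array.

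Of the 5 genes compared, 1, Ly6a, was called higher and 0 were called lower, where 2.02% of the 3461 genes compared were called higher and 0.809% lower, 2.83% in all. The median log2 difference of the 5 genes was 0.43, and that of all genes compared was 0.13. Lynx1, Ly6h and Ly6d were below the floor on both naive arrays. The first Ly6a row missed 2-fold, so the call rests on 1 of its pair of rows. Over the genes with several rows above the floor, the log2 differences of rows of the same gene had a pooled SD of 0.34 in this comparison, a spread between probe sets and not between replicates.

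Interferon-stimulated genes were also higher on the naive miR-7 deficient array. Of 13 measured interferon-stimulated genes, 7 were compared and 5 of these were called higher on the miR-7 deficient array, 0 lower, with a median log2 difference of 1.40. Isg15, an interferon-induced ubiquitin-like protein, had 1996 on the naive miR-7 deficient array against 359 on the naive WT array. The B cell list summed to 26346 on the naive miR-7 deficient array and 16049 on the naive WT array, and the neutrophil list to 4902 and 1622. T cell markers summed to 29408 and 24920. None of the B cell markers (0 of 4 compared) or T cell markers (0 of 9) was called, where 2.83% of all genes compared were. Lists of this size would hold few or no calls at that share. Of the neutrophil markers, 1 of 2 compared was called higher, S100a9, with a log2 difference of at least 1.38. The T cell median log2 difference was 0.17 against 0.13 for all genes. The part of these lists in the Ly6a, Ly6c1 and Thy1 differences was not tested.

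Between the arrays labelled activated, the gene called in the same genotype comparison was Thy1. It was 2.08-fold higher on the miR-7 deficient array (log2 difference 1.06), with intensities of 17567 and 8439 on the miR-7 deficient and WT arrays labelled activated. Ly6a differed by -0.23 on the log2 scale on its first row and by -0.09 on its second. Ly6c1 differed by -0.42 on the log2 scale, Ly6e by 0.19, Ly6h by 0.39 and Lynx1 by -0.01.

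Of the 6 genes compared, 1, Thy1, was called higher and 0 were called lower, where 2.22% of the 5723 genes compared were called higher and 2.38% lower, 4.6% in all. The median log2 difference was 0.09 for the 6 genes and 0.00 for all genes compared. Neuron markers were above the floor for 9 of 10 in this comparison, with 2 called higher on the miR-7 deficient array, 0 lower and a median log2 difference of 0.40. Slc17a7, a vesicular glutamate transporter, was 1 of them, at 15853 and 902 on the miR-7 deficient and WT arrays labelled activated. The neuron sum was 92999 against 64980 on these arrays, a difference to which Slc17a7 gave more than any other marker. Gad1, the enzyme that makes GABA, went the other way, at 1292 against 2332, as did Nefl, a neurofilament chain, at 3089 against 4489, and Stmn3, at 20918 against 22003. The oligodendrocyte sum was 47340 against 58867. The T cell sum was 7252 against 5553. Of 4 T cell markers compared, 1 was called higher, Tcf7 at 3643 against 1039, and 0 lower, with a median log2 difference of -0.14. The part of these lists in the Thy1 difference was not tested.

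**Figure D3:**
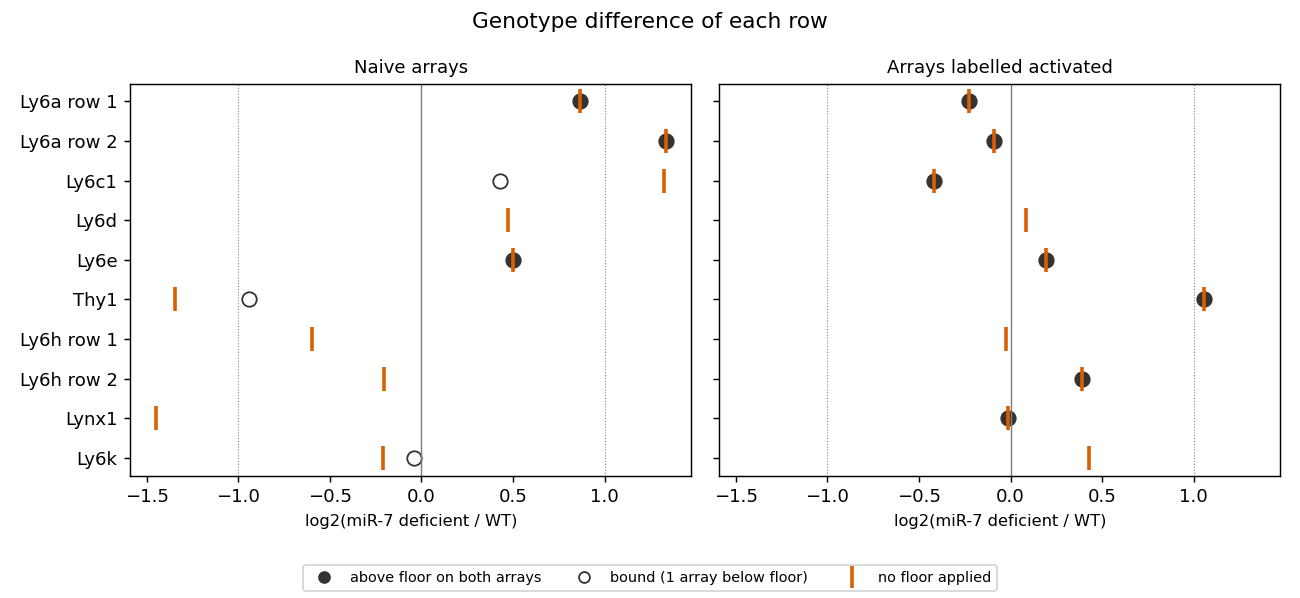
log2 ratio of miR-7 deficient over WT for all 10 rows, naive arrays left and arrays labelled activated right; filled points are above the floor on both arrays, open points are bounds, orange ticks use no floor, and dotted lines mark 2-fold. The second Ly6a row passes 2-fold upward on the left (1.33), Thy1 passes it upward on the right (1.06) and lies at a bound of -0.94 on the left.

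Between the activated-labelled and naive WT arrays, Thy1 and Lynx1 were higher on the array labelled activated and Ly6e was lower there. Thy1 was 4.47-fold higher (log2 difference 2.16), with 8439 on the WT array labelled activated and 1889 on the naive WT array. Lynx1 was at least 2.53-fold higher, with 2491 labelled activated against 627 naive. Ly6e was 2.36-fold lower (log2 difference -1.24), with 2877 labelled activated against 6781 naive. Ly6a differed by -0.25 and -0.21 on its first and second rows, Ly6c1 was at least 0.37 higher on the log2 scale, Ly6h at least 0.15 higher and Ly6k at least 0.49 lower, the last as a bound of -0.49.

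Of the 7 genes compared between the WT arrays, 2 were called higher and 1 lower, where 14.5% of the 5132 genes compared were called higher and 8.81% lower, 23.3% in all. The median log2 difference was 0.15 for the 7 genes and 0.00 for all genes compared. Both genes called higher are expressed by neurons, and the neuron list had 6 of its 8 compared markers called higher with a median of 2.59. The T cell list had 7 of its 7 compared markers called lower, with a median of -1.85. Brain endothelial cells are known to carry Ly6a and Ly6c1, and the 10 endothelial markers summed to 5193 and 5340 on the miR-7 deficient and WT arrays labelled activated, against 2712 and 2203 on the naive miR-7 deficient and naive WT arrays, with 2, 1, 1 and 0 of them above the floor. Their part in the Ly6a and Ly6c1 values was not tested. Whether the Thy1 and Lynx1 differences go with activation or with the brain transcripts on the array labelled activated cannot be told apart in this design.

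Between the miR-7 deficient arrays, Thy1 and Lynx1 were higher on the array labelled activated, and Ly6e and Ly6a were lower there. Thy1 was at least 17.8-fold higher on the array labelled activated, with 17567 there against 742 on the naive miR-7 deficient array. Lynx1 was at least 2.51-fold higher, with 2468 labelled activated against 229 naive. Ly6e was 2.92-fold lower, with 3289 labelled activated against 9596 naive. Ly6a was 2.54-fold lower on its first row (log2 difference -1.34) and 3.11-fold lower on its second (log2 difference -1.64), so here both rows passed 2-fold. Ly6c1 differed by -0.48 on the log2 scale and Ly6h by at least 0.53.

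Of the 6 genes compared between the miR-7 deficient arrays, 2 were called higher and 2 lower, where 11.1% of the 5828 genes compared were called higher and 14.8% lower, 25.9% in all. The median log2 difference was 0.03 for the 6 genes and 0.00 for all genes compared. The interferon-stimulated list had 7 of its 7 compared genes called lower on the array labelled activated, with a median of -2.28, and the T cell list had 8 of 9 called lower, with a median of -1.60. The neuron list had 6 of 9 called higher, with a median of 3.39. The part of these lists in the Ly6a, Ly6e and Thy1 differences was not tested.

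**Figure D4:**
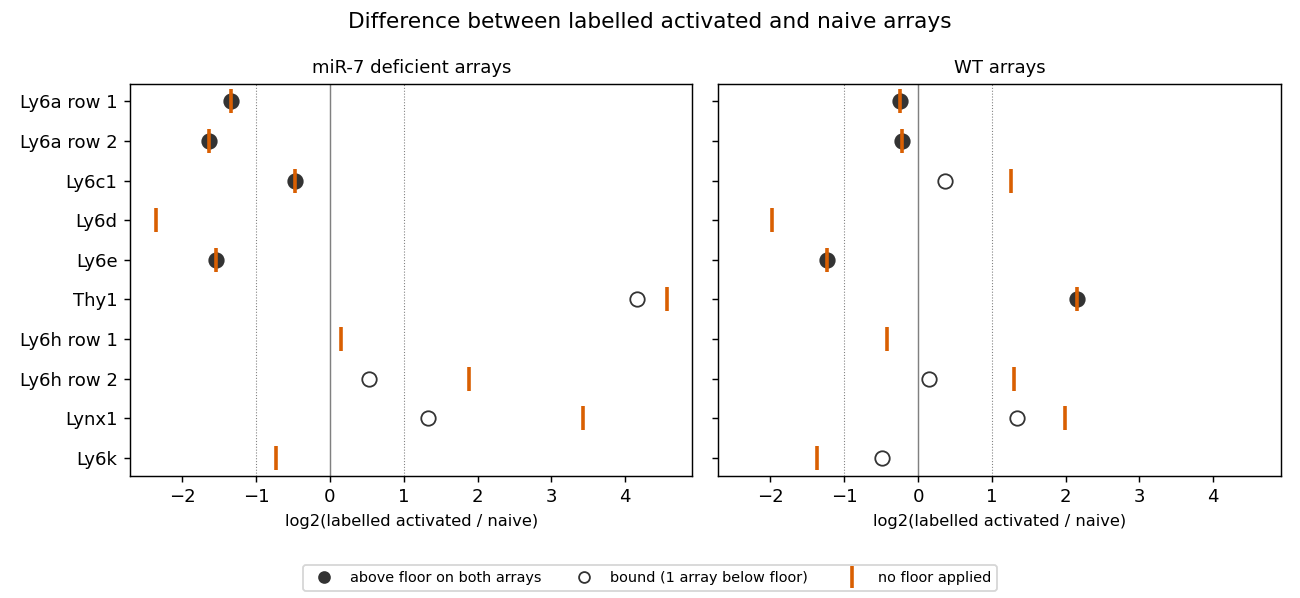
log2 ratio of labelled activated over naive for all 10 rows, miR-7 deficient arrays left and WT arrays right; filled points are above the floor on both arrays, open points are bounds, orange ticks use no floor, and dotted lines mark 2-fold. Thy1 lies furthest to the right in both panels, at a bound of 4.16 for miR-7 deficient and at 2.16 for WT, and both Ly6a rows pass 2-fold downward for miR-7 deficient only.

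The genotype difference on the arrays labelled activated minus that on the naive arrays describes where the genotypes differed unequally in the states. It was at most -0.85 for Ly6c1, where the naive WT value is below its floor, and -1.09 and -1.43 for the first and second Ly6a rows. For Thy1 the log2 value was at least 1.997. Of the 7 genes compared, Thy1 was called higher and Ly6a lower, where 3.43% of the 6242 genes compared were called higher and 6.2% lower, 9.63% in all. The median was -0.01 for the 7 genes and -0.08 for all genes compared. Ly6e differed by -0.31. Ly6h, at 0.39, and Lynx1, at -0.01, carry only their difference between the arrays labelled activated, since both were below the naive floors. With 1 array per group none of these differences could be tested.

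The 4 lymphoid genes summed to 5208 and 5167 on the miR-7 deficient and WT arrays labelled activated, against 14138 and 8749 on the naive miR-7 deficient and naive WT arrays. The pair of neuronal genes summed to 3891 and 3579 on the arrays labelled activated, against 613 and 1070 on the naive arrays. The lower WT lymphoid sum on the array labelled activated goes mainly with Ly6e, at 2877 there against 6781 naive. Ly6a differed by -0.21 on the log2 scale, at 931 against 1077. Ly6d had 92.4 against 363, both below the floor, and Ly6c1 was higher on the array labelled activated (1268 against 528). Both neuronal genes were below the floor on both naive arrays, so their naive sums hold background-level values only.

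Of the 8 genes, 7 lie in the Ly6 cluster of chromosome 15, which holds 23 protein-coding genes from Lynx1 to Ly6h in the GRCm38.p6 gene table, 17 of them with a row on the array. Lynx1 and Ly6h, the neuronal genes, lie at the ends of the stretch. Ly6a and Ly6c1 are neighbours, and Ly6e lies near them with Ly6i between Ly6e and Ly6a. Of the 10 measured cluster genes other than the 7 described, 5 were above the floor on at least 1 array. Over all genes, 14493 of 20735 were below every floor. Ly6a2, a close relative of Ly6a, had 1358 and 1171 on the miR-7 deficient and WT arrays labelled activated, and 2823 and 2787 on the naive miR-7 deficient and naive WT arrays. Its naive genotype difference was 0.02 on the log2 scale, against 1.33 for the second Ly6a row. Ly6i, another relative, had 550 and 943 on the arrays labelled activated and 1071 and 1455 on the naive arrays, the WT array being the higher in both states. Ly6c2, the nearest relative of Ly6c1, had 700, 564, 742 and 178 in the order used above and passed the floor only on the miR-7 deficient array labelled activated. Ly6a, Ly6a2, Ly6i, Ly6c1 and Ly6c2 are similar in sequence, and probe sequences were not used here. Cross-hybridisation between them was not tested, and their levels are uncertain to that extent.

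**Figure D5:**
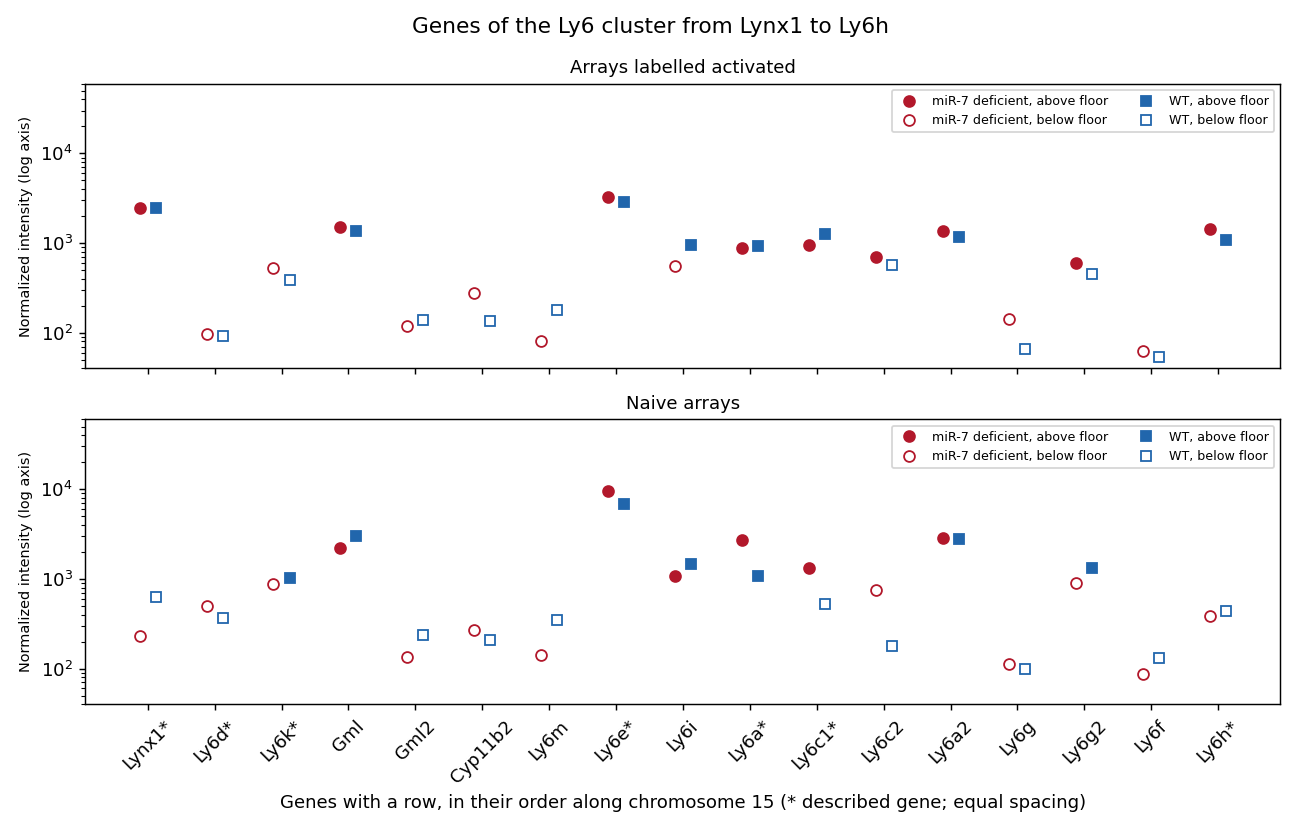
Normalized intensity (log axis) of the 17 cluster genes with a row, in chromosome order at equal spacing, on the arrays labelled activated (top) and naive (bottom), with open symbols below the floor. Lynx1 and Ly6h at the ends are above the floor only in the top panel, and in the bottom panel Ly6a, at 2717 on the miR-7 deficient array and 1077 on the WT array, differs more between genotypes than its relative Ly6a2, at 2823 and 2787.

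Of the other Ly6/uPAR genes listed, 33 of 42 had a row. Of these 33, 25 were below the floor on all 4 arrays, where 14493 of all 20735 genes were. Between the naive arrays 0 of 6 compared were called, where 2.83% of all genes were, and between the arrays labelled activated 0 of 8, where 4.6% were, so lists of this size would hold few or no calls at those shares. The median log2 difference was -0.38 naive and 0.08 labelled activated. Between activated-labelled and naive arrays, 2 of 6 were called lower in WT, Ly6a2 and Gml, and 2 of 8 in miR-7 deficient, Ly6a2 and, as a bound, Pate2, with 0 higher in either. Gml encodes a GPI-anchored Ly6-like protein, and had 1521 and 1354 on the miR-7 deficient and WT arrays labelled activated, against 2201 and 2972 naive. With so few genes, these counts are to be read beside the 23.3% and 25.9% called among all genes in the WT and miR-7 deficient activation comparisons.

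Most of these proteins depend on the enzymes that build and attach the GPI anchor. Of 27 measured genes of this list, 19 were below the floor on all 4 arrays, where 14493 of all 20735 genes were, a similar share. Pigm, a mannosyltransferase of the pathway, had 1552 and 1028 on the miR-7 deficient and WT arrays labelled activated and 1321 and 2721 on the naive miR-7 deficient and naive WT arrays. It was called lower between the naive arrays (log2 difference -1.04), the only 1 of 4 compared. The share called lower among all genes compared there was 0.809%. Pigm was also called lower between the WT arrays (log2 difference -1.40). Pigq and Pgap2, of the same pathway, were called lower between the WT arrays as bounds of -1.08 and -1.26. In all, 3 of 5 compared were called lower between the WT arrays, where 8.81% of all genes compared were. No gene of the list was called in the comparison of arrays labelled activated (8 compared) or of miR-7 deficient arrays (7 compared). Among all genes compared, 4.6% were called between the arrays labelled activated and 25.9% between the miR-7 deficient arrays.

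Genes for the binding partners were listed too, to be read beside the same 14493 of 20735 genes below every floor. Of 12 measured nicotinic acetylcholine receptor subunits, which Lynx1 and Ly6h act on, 9 were below the floor on all 4 arrays. Of the 3 compared between the arrays labelled activated 0 were called, where 4.6% of all genes compared were. Of 8 measured integrin and syndecan ligands of Thy1, 7 were below every floor. The exception, Itgb1, an integrin beta chain, had 647 and 886 on the miR-7 deficient and WT arrays labelled activated and 1126 and 525 on the naive miR-7 deficient and naive WT arrays.

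For the 7 genes above a floor on some array, the genes with the most similar pattern were found among 4899 candidates by the root mean square distance of centred log2 intensity over the 4 arrays. The nearest to Ly6a was Tcf3 at 0.02, the nearest to Ly6c1 was Herpud1 at 0.08, and the nearest to Ly6e was Rgs19 at 0.06. The nearest to Thy1 was Brinp2 at 0.09, followed by Bcl2l2 at 0.11. Ly6h was nearest to Cars at 0.04 and Ly6k to Sf3a3 at 0.03, and those near Lynx1 included Mpped2 at 0.11. Values below the floors entered these distances: Tcf3 and Rgs19 exceeded the floor only on the naive miR-7 deficient array, and Brinp2 had 55.8 and 157 on the naive miR-7 deficient and naive WT arrays. The names describe likeness over 4 values only.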

How the data were processed

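RNA of 4 samples, 1 array each, was labelled with Cy3 and hybridised to NimbleGen expression arrays, per the labels' protocols. The authors normalized the arrays with RMA, per the submitters' processing notes, and the deposited values are normalized intensities on a linear scale, whereas a file header describes them as log2. The deposited comparison tables repeat these intensities beside a fold between arrays. They served only for row annotation, and all 283288 of their intensities equal the value table (relative tolerance 1e-06). The sources used here do not give the array's build, so file coordinates are not printed.

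Rows were joined to genes by the tables' names; 33663 of 35411 rows name a gene, and 31529 were matched by gene number to RefSeq (GRCm38.p6). A gene is represented by its row with the highest mean intensity. Intensities were taken to log2, values below an array's floor were set to it, and 2-fold was the call. No test was run, since each group has 1 array. The genes described and all lists were chosen with earlier results of these data known. Genes other than these 8 are named from the marker, pathway and family lists, from the neighbours on chromosome 15 or as the nearest in pattern; not all such genes are reported here. The counting step was tested on simulated data. Alternatives were centring, removal of a lowess trend (fraction 0.3), no floor, floors at the 99th and 75th percentiles, quantile normalization of the arrays compared, and averaging a gene's rows. Software was numpy 2.4.6, pandas 2.3.3, statsmodels 0.14.6 and matplotlib 3.10.9 under Python 3.11.15.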

Additional observations from a re-analysis of the deposited data

Results flagged for a closer look

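In 3 genes the genotype difference had opposite signs on the naive arrays and on the arrays labelled activated. Only Ly6a, Ly6c1, Ly6e and Thy1 had a value in both comparisons. The share of all genes with opposite signs is not given here, so the count is not read as a trait of these genes. The difference between these differences (labelled activated minus naive, log2) was -1.43 for Ly6a, at most -0.85 for Ly6c1 and at least 1.997 for Thy1. Ly6a and Ly6c1 were higher on the miR-7 deficient array among naive arrays and lower among arrays labelled activated. Among the latter, Ly6a differed by only -0.23 and -0.09 on its first and second rows. Both are smaller than the pooled SD of 0.35 between rows of a gene in that comparison, a spread between probe sets and not between replicates. The sign for Ly6a there is uncertain, and with 1 array per group the signs for Ly6c1 and Thy1 have no measured certainty either. Thy1 was lower on the miR-7 deficient array among naive arrays and higher among those labelled activated. With 1 array per group these differences were not tested.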

How the results depend on the processing

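No paired analysis was possible because each group has 1 array. The precision is limited by the number of arrays, and genes near the floor depend on where it is set. Between the naive arrays, the 1 gene called became 2 with the intensity trend removed or with quantile normalization (Thy1 lower added), 4 with no floor or a 75th percentile floor (Ly6c1 higher and Lynx1 and Thy1 lower added), and 0 with a 99th percentile floor. Ly6a, at 1.33, kept 1.16 with the trend removed and 1.10 as the mean of its rows, but had a bound of 0.06 at the 99th percentile floor. Thy1 was called alone between the arrays labelled activated under every alternative. Between the WT arrays the 3 called became 7 with no floor, 6 with the 75th percentile floor and 2 with the 99th, where Lynx1 was no longer called. Between the miR-7 deficient arrays the 4 called became 6 with no floor or the 75th percentile floor and 2 with the 99th (Lynx1 and Ly6a no longer called). For the difference of differences the 2 called became 4 with no floor, 4 with the 75th and 1 with the 99th percentile floor. Over all genes, 70 higher and 28 lower calls between the naive arrays became 30 and 68 with the trend removed and 31 and 64 with quantile normalization. Between the WT arrays 744 higher and 452 lower became 867 and 313 with centring and 511 and 871 with quantile normalization. Between the miR-7 deficient arrays 646 higher and 863 lower became 751 and 657 with the trend removed and 736 and 700 with centring. The median log2 difference over all rows, which centring removes, was -0.14 between the WT arrays and -0.12 between the miR-7 deficient arrays, and relative to it no call among the 8 genes changed. The cause of these shifts was not tested. Of 280 values of single genes under alternatives, 228 moved by less than the spread between rows, and 52 moved by more. No called value changed sign. Lynx1, at -0.01 between the arrays labelled activated, became 0.05 with the trend removed and 0.01 with quantile normalization. In the difference of differences it was -0.01 and became 0.05 and 0.01 under these, 1.44 with no floor and 1.16 with the 75th percentile floor, the last pair past 2-fold.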
